A study of Mus musculus with 20 samples.

Results

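ATP-binding cassette (ABC) transporters were followed in the kidneys of mice given puberulic acid, a tropolone made by some Penicillium moulds. The members were the genes whose symbol starts with Abca, Abcb, Abcc, Abce, Abcf or Abcg and a digit, pseudogenes left out, which gave 46 of the 55822 genes in the deposited table. Poly(A) RNA of whole kidney was sequenced from male C57BL/6J mice, 8 weeks old, that received phosphate-buffered saline (PBS, the control group) or puberulic acid at 1 mg per day. Both groups were dosed once a day for 6 administrations, had 1 day without dosing and were killed on day 7, and each holds 5 samples. The series text gives the route as oral, and the sample protocols give oral gavage or intraperitoneal injection, so the route of each mouse is not known here. The labels number the samples but do not state that each came from a different mouse, so the p-values measure the spread between these samples. The study also has 5 samples for each of 2 lots, normal and toxic, of the supplement Choleste-Help at 1000 mg per day, whose column names do not show which lot they hold, and these 10 columns are not analysed here.

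ABC proteins couple ATP binding and hydrolysis to the movement of lipids, bile salts, drug conjugates, peptides or metabolites across membranes. In the proximal tubule, members of the Abcb, Abcc and Abcg subfamilies export drugs, conjugates and urate into the urine or back into the blood, after uptake carriers of the Slc22 and Slco families have brought organic ions into the cell. Abca proteins mainly move lipids, several Abcb proteins sit in mitochondria, and the Abce and Abcf proteins span no membrane and act on ribosomes.

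Promoter sequence is shown for 5 members on which the comparison turns: the near copies Abcb1a and Abcb1b, which were both called higher, Abca1 and Abca3, which changed in opposite directions, and Abcc4, an exporter of the proximal tubule that rose. Each line holds the 250 bases before the annotated start, 5′ to 3′ on the strand of the gene, from RefSeq on build GRCm38.p6. Capitals mark matches on either strand to 6 motifs: the antioxidant response element core TGACNNNGC, the AP-1 site TGANTCA, the GC box GGGCGG, the CCAAT box, the TATA box TATAAA and the E-box CACGTG. Overlapping matches run together as 1 stretch of capitals.
Abcb1a, chr5:8566841-8567090, plus strand: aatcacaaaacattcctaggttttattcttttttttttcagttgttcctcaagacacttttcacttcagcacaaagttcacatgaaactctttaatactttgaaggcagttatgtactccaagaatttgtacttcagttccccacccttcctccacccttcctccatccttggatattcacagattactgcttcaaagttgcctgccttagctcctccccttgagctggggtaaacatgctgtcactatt
Abcb1b, chr5:8797897-8798146, plus strand: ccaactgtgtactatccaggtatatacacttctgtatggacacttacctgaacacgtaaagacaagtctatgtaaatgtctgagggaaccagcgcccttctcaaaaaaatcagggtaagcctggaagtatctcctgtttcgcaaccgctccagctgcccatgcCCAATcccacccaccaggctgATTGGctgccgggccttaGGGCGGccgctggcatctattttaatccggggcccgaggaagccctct
Abca1, chr4:53159896-53160145, minus strand: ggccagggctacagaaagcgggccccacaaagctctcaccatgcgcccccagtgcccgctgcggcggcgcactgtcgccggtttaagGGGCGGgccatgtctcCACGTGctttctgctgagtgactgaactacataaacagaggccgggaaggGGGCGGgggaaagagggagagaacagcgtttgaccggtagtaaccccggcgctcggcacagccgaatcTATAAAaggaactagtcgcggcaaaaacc
Abca3, chr17:24351773-24352022, plus strand: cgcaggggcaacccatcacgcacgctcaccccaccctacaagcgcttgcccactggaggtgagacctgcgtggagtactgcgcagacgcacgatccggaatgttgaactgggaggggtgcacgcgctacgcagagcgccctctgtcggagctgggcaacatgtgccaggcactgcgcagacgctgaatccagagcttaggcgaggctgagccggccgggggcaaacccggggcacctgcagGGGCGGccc
Abcc4, chr14:118706220-118706469, minus strand: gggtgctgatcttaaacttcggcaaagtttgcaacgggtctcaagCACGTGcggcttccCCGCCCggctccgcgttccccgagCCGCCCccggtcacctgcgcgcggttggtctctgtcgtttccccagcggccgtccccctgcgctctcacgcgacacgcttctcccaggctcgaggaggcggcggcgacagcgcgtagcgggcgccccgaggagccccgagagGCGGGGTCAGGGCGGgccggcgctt

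Abcb1a had no match to any of the 6 motifs in this window, while Abcb1b had 1 GC box and 2 CCAAT boxes. Abca1 had 2 GC boxes, 1 TATA box and 1 E-box, and Abca3 had 1 GC box. Abcc4, shown here with 1 of its 2 annotated starts, had an antioxidant response element core, 3 GC boxes and an E-box. Over the 32851 promoter windows of the RefSeq table, 10.2% held the antioxidant core, 6.75% the AP-1 site, 32.7% the GC box, 33.8% the CCAAT box, 12.4% the TATA box and 6.02% the E-box. Windows were found for 37 of the 46 members, 43 windows in all. The antioxidant core was in 4 of these 43 windows, the AP-1 site in 0, the GC box in 20, the CCAAT box in 13, the TATA box in 5 and the E-box in 5. A match is a string of letters and was not tested as a binding site.

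Of the 46 members, 34 had enough counts to be tested and 12 did not. Abca15, Abca16 and Abcb5 had 0 counts in all 10 samples, which allows up to 3 counts in a sample. The other members not tested were Abca6, Abca12, Abca14, Abca17, Abcc8, Abcc12, Abcg4, Abcg5 and Abcg8, none with more than 15 counts in any sample. Abcg5 and Abcg8, which together form the sterol exporter of liver and gut, were thus near the floor in both groups. Total counts ran from 18409940 to 24705953 per sample. Levels are given as CPM, a gene's counts relative to the library total scaled by edgeR's TMM (trimmed mean of M-values) factors, in the order of replicates 1 to 5. A gene was called when its p-value from edgeR's quasi-likelihood test, adjusted over all 16266 genes tested by the Benjamini-Hochberg method, was under 0.05.

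Of the 34 members tested, 26 were called, 10 higher and 16 lower with puberulic acid. Without Abcb11, which had no control counts and entered the test only through the treated samples, 25 of 33 were called, 9 of them higher. Abcb4 and Abcg3 reached the count minimum of the filter in 3 and 2 controls and in all 5 treated samples. Abcc6 reached it in 5 controls and 4 treated samples. Abcb4 and Abcc6 thus reached it in every sample only in the group where they were higher, and their calls are no independent support. Much of the kidney transcriptome differed between the groups: 65.3% of all tested genes were called, 34.2% higher and 31.1% lower. In whole kidney, fewer cells of a type and less RNA per cell cannot be told apart. Among the members 76.5% were called, 29.4% higher and 47.1% lower, and their median log2 fold change was -0.21 against 0.05 over all tested genes. At a log2 fold change of at least 1 in size, 6 members were higher and 9 lower, where the shares over all tested genes were 18.7% and 13.6%. Control and treated CPM values were fully apart, without overlap, for 21 members, 8 higher and 13 lower. Over all tested genes this held for 50.1%, 26.1% higher and 24.0% lower. Scaling mattered for direction: with total counts in place of TMM factors the median gene moved from 0.05 to 0.56, and 16 members (47.1%) were called higher and 10 (29.4%) lower, against 56.4% and 15.5% of all tested genes. Of the members' calls, 38.5% were higher by TMM factors and 61.5% by total counts. Over all genes these shares were 52.4% and 78.4%. No member was called in opposite directions by the 2 scalings. The 10 genes called lower by both were Abca2, Abca3, Abca8a, Abcb6, Abcb8, Abcb9, Abcc6, Abcc9, Abcc10 and Abcg2, and the 10 called higher with TMM factors were also called higher with total counts.

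**Figure D1:**
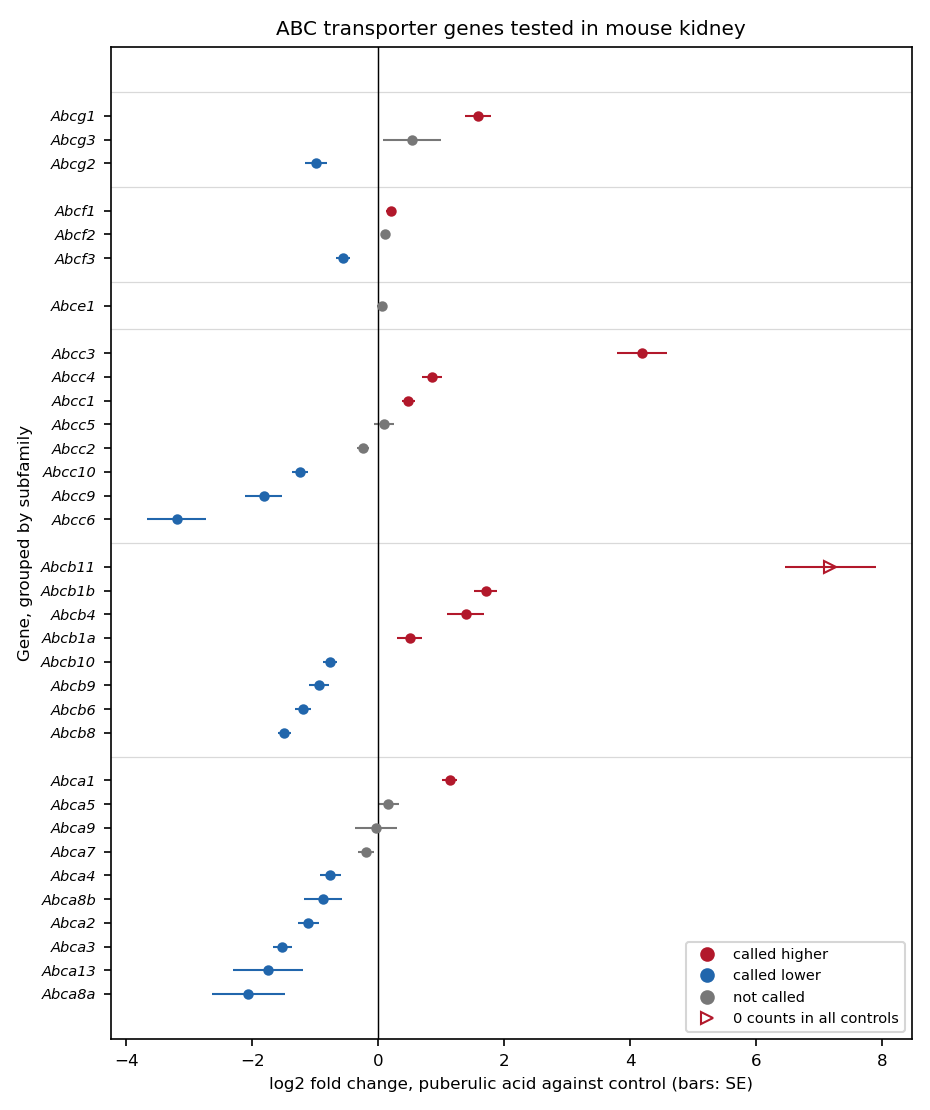
Log2 fold changes of 33 of the 34 ABC transporter genes tested, puberulic acid against control, with standard errors as bars, grouped by subfamily. Red points were called higher (10), blue points lower (15) and grey points not called (8); the open triangle, Abcb11, had 0 counts in every control, so its fitted value is not a measured fold.

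Per kilobase of the longest annotated coding transcript, 3 genes led the family in control kidney. Abca3 stood at 67.0 ± 11.8 CPM per kilobase, Abcg2 at 63.9 ± 6.81 and Abcc2 at 35.7 ± 2.97 (SD, n = 5). Abca3 and Abcg2 lay within their spread of each other, and Abcb8 came next at 26.0 ± 2.73. With puberulic acid the order became Abcg2 at 32.2 ± 9.35, Abcc2 at 30.3 ± 3.63, Abcf1 at 27.9 ± 1.98, Abca3 at 23.4 ± 4.66 and Abce1 at 22.3 ± 1.17 CPM per kilobase (SD, n = 5). Abcg2 had the widest spread of these 5, and differences between the genes were not tested. Summed over all 46 members, the level was 1954 ± 128 CPM in controls and 1311 ± 178 CPM in treated kidneys (SD, n = 5). On total counts the same sums were 1638 ± 104 and 1564 ± 203 CPM (SD, n = 5), so the lower sum rests on the TMM scaling. Abca3, Abcc2 and Abcg2 together held 55.5% ± 2.59 of the summed CPM in controls and 44.0% ± 1.85 with puberulic acid (SD, n = 5), a share that scaling does not change. Each control, at 52.0% to 58.3%, lay above every puberulic acid sample, at 41.8% to 46.7%. These 3 genes were picked as the highest of the control group, a choice that by itself favours a lower share in treated samples. The difference in share is therefore no independent result.

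**Figure D2:**
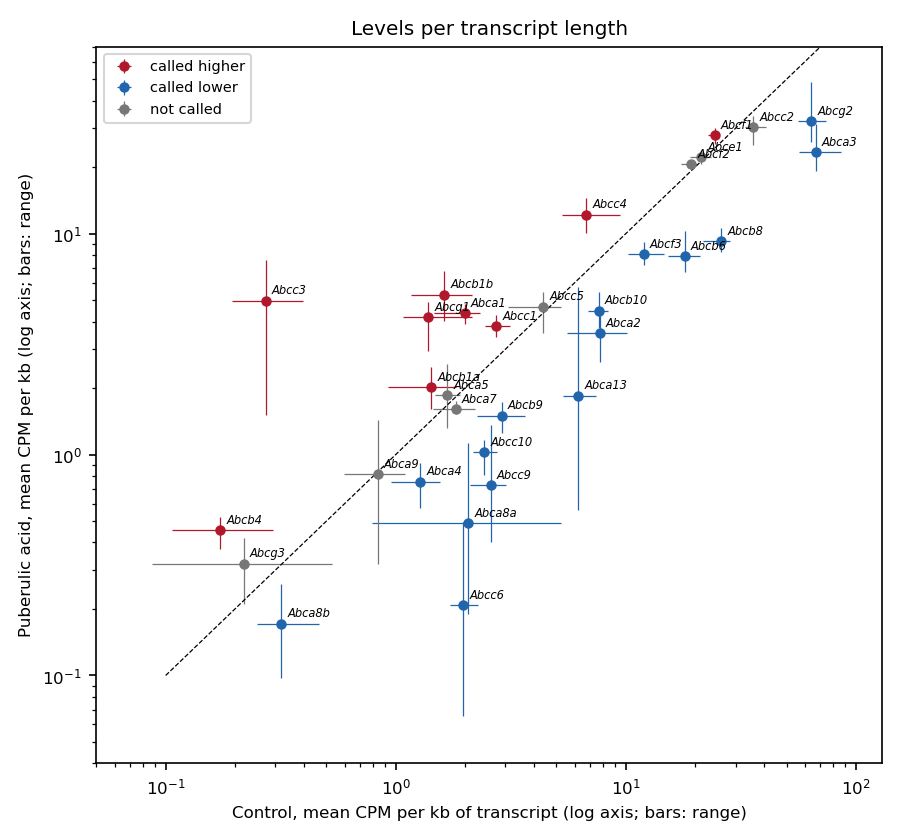
Mean CPM per kilobase of transcript in controls (horizontal) and with puberulic acid (vertical) for 32 tested members with control counts, both on log axes, with bars from the lowest to the highest sample. The dashed line marks equal levels; Abcc3 lies farthest above it and Abcc6 farthest below.

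The exporters of the proximal tubule did not move as a block. Abcg2, the breast cancer resistance protein of the apical membrane, which exports urate and many drugs, fell, while Abcc2 was not called. Abcg2 (ENSMUSG00000029802) measured 377, 423, 365, 341 and 321 CPM in control replicates 1 to 5 and 279, 164, 149, 163 and 168 CPM with puberulic acid. Every puberulic acid sample lay below every control, and replicate 1 was well above the other 4. Its log2 fold change was -0.99 ± 0.17 (SE, adjusted p = 0.000231), with a mean 1.98-fold lower. Abcc2 (ENSMUSG00000025194), which sends glutathione and glucuronide conjugates into urine and bile, measured 326, 280.5, 289.6, 274 and 264 CPM in controls and 274, 264, 203, 249 and 224 CPM with the compound. The ranges overlapped, and the log2 fold change of -0.24 ± 0.10 (SE) had an adjusted p of 0.052. This gene was near the threshold: it was called lower without control replicate 5, or without puberulic acid replicate 1, 2 or 4, also with DESeq2 and with DESeq2-type (RLE) factors (both -0.25), and called higher, at 0.27, on total counts.

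Abcc4 and Abcc3 rose. Abcc4 (ENSMUSG00000032849), an apical exporter of urate, cyclic nucleotides and organic anions, went from 38.9, 37.1, 32.8, 30.1 and 53.8 CPM to 83.2, 80.5, 57.7, 68.7 and 58.7 CPM. All 5 treated samples exceeded the highest control, with a log2 fold change estimated at 0.86 ± 0.16 (SE, adjusted p = 0.000613). Abcc3 (ENSMUSG00000020865), an exporter of glucuronides and bile salts on the blood-facing membrane, was low in controls at 0.970, 1.32, 1.97, 1.12 and 1.43 CPM and stood at 7.57, 38.2, 29.5, 25.1 and 24.1 CPM with puberulic acid. Replicate 1 was the lowest treated sample and still above every control. The mean was 18.3-fold higher, with a log2 fold change estimated at 4.19 ± 0.40 (SE, adjusted p = 2.55e-06), the largest among members with control counts. Abcc3 made up 0.478% ± 0.142 of the summed CPM of Abcc2 and Abcc3 in controls and 9.37% ± 4.08 with the compound (SD, n = 5). Abcc1 (ENSMUSG00000023088), which exports glutathione conjugates, moved less, from 16.7, 21.2, 16.9, 18.1 and 20.2 to 28.9, 24.6, 26.6, 26.7 and 23.1 CPM. Its ranges did not overlap, and the log2 fold change was 0.48 ± 0.10 (SE, adjusted p = 0.00125).

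The remaining Abcc genes fell or were not called. Abcc6 (ENSMUSG00000030834), a transporter of the basolateral membrane of liver and proximal tubule whose loss causes pseudoxanthoma elasticum, went from 8.56, 9.23, 9.55, 10.3 and 11.3 CPM to 1.45, 0.511, 0.424, 0.326 and 2.47 CPM. Every treated sample lay far below every control, and the mean was 9.45-fold lower (log2 fold change -3.20 ± 0.47, SE, adjusted p = 8.52e-05). Without puberulic acid replicate 5 the value was -3.85. Abcc10 (ENSMUSG00000032842), which can export lipophilic drugs, measured 12.6, 12.1, 11.4, 13.2 and 14.5 CPM in controls and, after puberulic acid, 6.16, 5.71, 5.21, 4.24 and 5.59 CPM, again without overlap. The log2 fold change was -1.24 ± 0.13 (SE, adjusted p = 6.54e-06). Abcc5 (ENSMUSG00000022822), an exporter of cyclic nucleotides, measured 17.9, 27.1, 23.3, 28.8 and 30.4 CPM in controls and 30.8, 31.7, 20.5, 25.9 and 26.9 CPM with the compound, overlapping, with a log2 fold change estimated at 0.09 ± 0.16 (SE, adjusted p = 0.624). On total counts Abcc5 was called higher, at 0.60. In total 6 of 8 tested Abcc members were called, 3 higher and 3 lower, with a median log2 fold change of -0.07. This was 75.0% called, against 65.3% of all tested genes.

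Abcc9 (ENSMUSG00000030249) encodes SUR2, the regulatory subunit that joins the channel proteins Kir6.1 (Kcnj8) and Kir6.2 (Kcnj11) in ATP-sensitive potassium channels of vessels and muscle. It went from 19.3, 20.8, 18.5, 22.6 and 15.8 CPM in controls to 10.2, 3.02, 3.39, 4.03 and 6.62 CPM. The groups did not overlap, and the log2 fold change was -1.82 ± 0.30 (SE, adjusted p = 0.00021). Both channel partners also fell. Kcnj8 went from 9.11 ± 1.19 to 3.44 ± 1.26 CPM (SD, n = 5) and Kcnj11 from 1.48 ± 1.39 to 0.402 ± 0.254 CPM (SD, n = 5), with log2 fold changes of -1.40 and -1.85 (adjusted p = 0.000181 and 0.0149), and on total counts 1 of the 2, Kcnj8, stayed called. Without control replicate 1 the value of Kcnj11 was -1.09 and not called. Of 11 markers of fibroblasts, pericytes and smooth muscle, 6 were higher, among them Col1a1 at 4.14, and Rgs5, a pericyte gene, was lower at -0.72 on the log2 scale, though not called on total counts or without control replicate 5 or puberulic acid replicate 3. The list summed to 225 to 544 CPM in controls and 546 to 1562 CPM in treated kidneys. Col1a1, Tagln and Acta2 were the largest parts of the treated sum, with means of 353, 266 and 192 CPM. Rgs5, and Myh11 and Ren1, which were not called, had lower means with the compound than in controls. The part of these cells in the Abcc9 result was not tested.

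Mouse P-glycoprotein is made from the near copies Abcb1a and Abcb1b, which export a wide range of drugs. Abcb1b (ENSMUSG00000028970) rose from 6.33, 5.01, 7.13, 7.23 and 9.29 CPM to 29.3, 23.8, 20.8, 17.4 and 22.7 CPM, 3.26-fold on the means. Every treated sample lay above every control, with a log2 fold change estimated at 1.71 ± 0.18 (SE, adjusted p = 5.68e-06). Abcb1a (ENSMUSG00000040584) measured 9.13, 4.64, 7.89, 6.54 and 7.34 CPM in controls and, after puberulic acid, 12.5, 9.41, 8.35, 8.03 and 12.1 CPM, with ranges that overlapped. Its log2 fold change of 0.50 ± 0.20 (SE) passed with an adjusted p of 0.0411, and it did not pass without any 1 of control replicates 2, 3, 4 or 5 or puberulic acid replicates 1, 2 or 5. Of the 31-base windows in the annotated transcripts of Abcb1b, 25.1% also occur in another member, mainly Abcb1a, so the division of reads between the copies is uncertain. Their sum does not depend on that division and was 14.1 ± 2.69 CPM in controls and 32.9 ± 6.18 CPM in treated kidneys (SD, n = 5). An exact permutation test, two-sided, of this difference of 18.8 CPM gave p = 0.00794, which is the lowest value 5 against 5 samples allow. Abcb1b made up 41.0% to 55.9% of the sum in controls and 65.2% to 71.7% with the compound.

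The Abcb genes of the bile canaliculus were scarce. Abcb4 (ENSMUSG00000042476), which moves phosphatidylcholine into bile, went from 1.20, 0.474, 0.764, 0.436 and 0.649 CPM to 1.52, 2.09, 2.12, 2.04 and 1.54 CPM, without overlap (log2 fold change 1.39 ± 0.29, SE, adjusted p = 0.00125). Abcb11 (ENSMUSG00000027048), the bile salt export pump, had 0 counts in all 5 controls and 22, 18, 16, 15 and 41 counts with puberulic acid, or 0.817, 0.767, 0.678, 0.611 and 1.32 CPM. Against the control floor of 3 counts per library it was at least 4.64-fold higher. It reached the count minimum of the filter in 0 controls and 5 treated samples, so it was tested only because of its level in treated samples, and its call is no independent support. Of 8 hepatocyte markers, listed after these values were seen, 3 were tested and none was higher under either scaling. Ttr, which carried most of their sum, was at 115 ± 45.5 CPM in controls and 17.5 ± 3.80 CPM in treated samples, and Alb at 5.30 ± 1.04 and then 3.52 ± 0.939 CPM (SD, n = 5). The part of liver-type RNA in the Abcb11 result was not tested.

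Mitochondrial and lysosomal Abcb genes all fell. Abcb8 (ENSMUSG00000028973), an inner membrane protein linked to mitochondrial iron export, went from 66.8, 87.7, 76.4, 84.8 and 83.3 CPM to 29.8, 25.4, 28.6, 32.5 and 25.6 CPM. Its 2 groups were far apart, with a mean 2.81-fold lower and a log2 fold change estimated at -1.49 ± 0.10 (SE, adjusted p = 1.94e-07). Abcb6 (ENSMUSG00000026198), linked to porphyrin transport, measured 45.2, 62.2, 51.3, 57.8 and 50.6 CPM and then 30.6, 21.9, 21.8, 23.0 and 19.9 CPM (log2 fold change -1.19 ± 0.13, SE, adjusted p = 6.8e-06). Abcb10 (ENSMUSG00000031974), an inner membrane protein of heme metabolism, went from 32.4, 36.1, 29.5, 35.4 and 30.8 CPM to 23.5, 17.1, 19.0, 16.1 and 20.9 CPM (log2 fold change -0.77 ± 0.11, SE, adjusted p = 9.93e-05). All treated samples were below all controls for each of these genes, and on total counts the change of Abcb10, at -0.25, was not called. Abcb9, a lysosomal peptide transporter, had a log2 fold change of -0.94. Leaving out Abcb11, the 8 other tested Abcb members were called, 3 higher and 5 lower, with a median log2 fold change of -0.69. Over all tested genes 65.3% were called. The 3 higher ones include Abcb4, which reached the count minimum of the filter in 3 controls and 5 treated samples.

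Genes of the pathway around the mitochondrial members were mostly lower. Of 22 genes of mitochondrial iron-sulfur cluster and heme synthesis, 19 were lower and 1, the iron importer gene Slc25a37, was higher. Their median log2 fold change was -0.99 against 0.05 over all tested genes, and 90.9% were called against 65.3%. Cpox, of heme synthesis, had -1.50, the cluster assembly gene Iba57 -1.28 and the sulfur donor Nfs1 -1.18 on the log2 scale. Slc25a37, named after its value was seen, stood at 0.35. On total counts 15 were lower and 4 higher. Red cell transcripts also differed between the kidneys: 8 erythroid markers summed to 1037 to 3304 CPM in controls and 37.6 to 337 CPM in treated kidneys, 5 of 7 tested lower and 1 higher, and their part in the Abcb results was not tested.

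**Figure D3:**
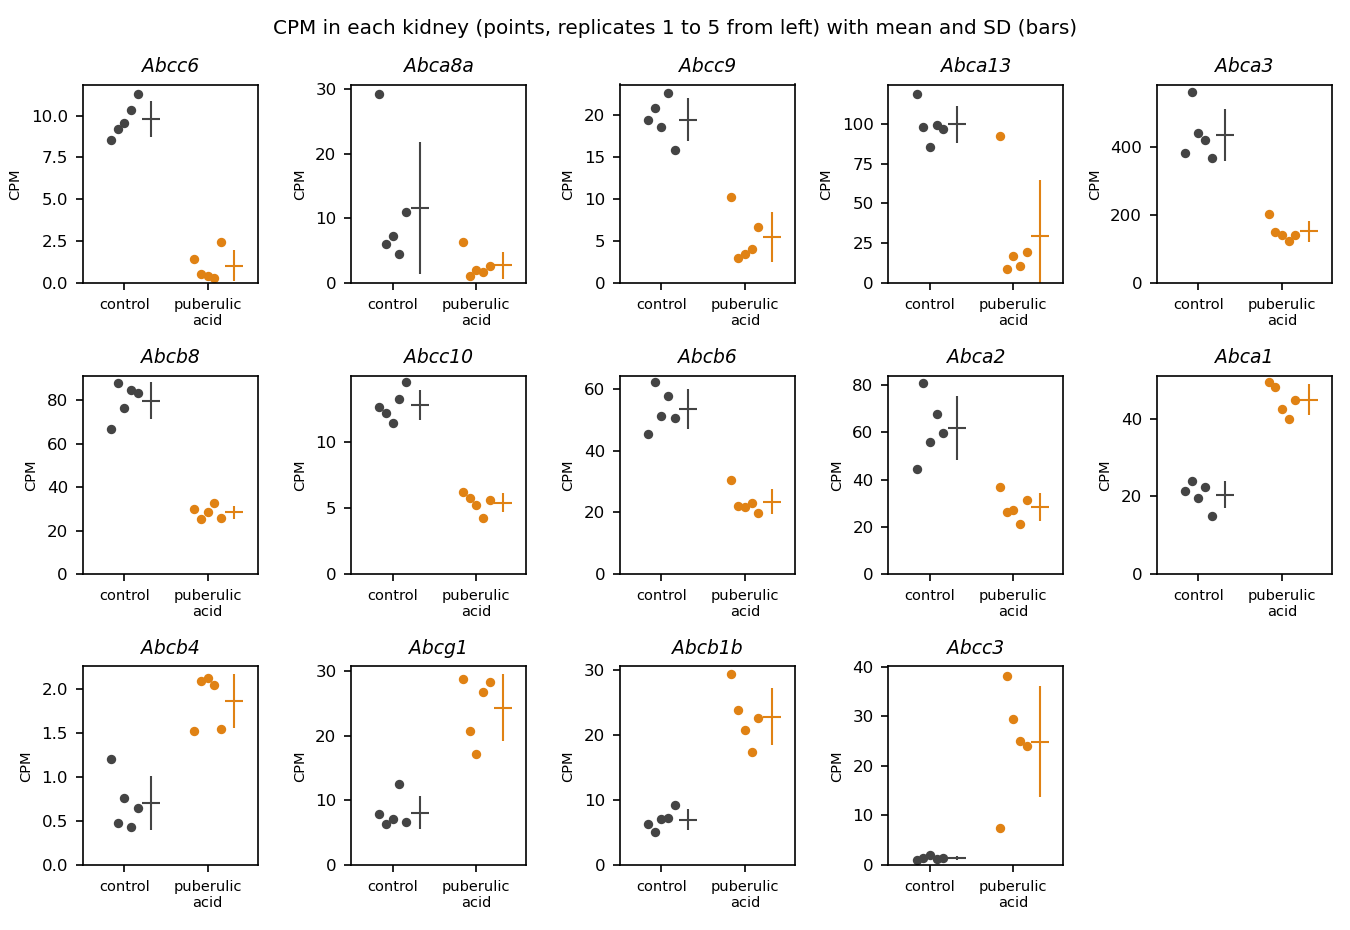
CPM in each sample for the 14 members called with a log2 fold change of at least 1 in size and with control counts, controls in grey and puberulic acid in orange, replicates 1 to 5 from left to right, beside the mean and SD. The groups overlap for Abca8a and Abca13 and are apart for the other 12.

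Lipid transporters of the Abca subfamily mostly fell by TMM factors. Abca3 (ENSMUSG00000024130), known for loading surfactant lipids into lamellar bodies of the lung, was the most abundant member per length in controls. Its values were 380.4, 561, 439, 420.1 and 368 CPM in controls and, after puberulic acid, 203, 150.5, 139.7, 125 and 140.4 CPM, without overlap. The mean was 2.86-fold lower, with a log2 fold change estimated at -1.52 ± 0.15 (SE, adjusted p = 3.95e-06). Abca2 (ENSMUSG00000026944), a lysosomal lipid transporter, went from 44.7, 81.1, 55.8, 67.7 and 59.7 CPM to 37.0, 26.1, 27.3, 21.2 and 31.4 CPM, again without overlap (log2 fold change -1.11 ± 0.17, SE, adjusted p = 0.000137). Abca13 (ENSMUSG00000004668), a very large and little known member, measured 118, 98.3, 85.7, 99.0 and 96.8 CPM in controls and 92.2, 8.99, 16.9, 10.4 and 19.7 CPM with the compound. Puberulic acid replicate 1 lay within the control range and the other 4 samples far below it. The log2 fold change of -1.75 ± 0.56 (SE, adjusted p = 0.0157) became -2.86 without that sample, and on total counts it was -1.25 and not called. Abca8a (ENSMUSG00000041828) stood at 29.3, 6.01, 7.25, 4.42 and 11.0 CPM in controls, with replicate 1 well above the rest, and at 6.35, 1.06, 2.03, 1.71 and 2.63 CPM with puberulic acid. Here the log2 fold change was -2.06 ± 0.58 (SE, adjusted p = 0.00773), and -1.38 without control replicate 1. Abca4, the retinal transporter, and Abca8b were also lower at -0.76 and -0.87 on the log2 scale, Abca8b not without control replicate 5, and neither on total counts. Abca5, Abca7 and Abca9 were not called, with log2 fold changes of 0.16, -0.19 and -0.03, and on total counts Abca5 and Abca7 were called higher at 0.67 and 0.32.

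Against this, the cholesterol exporters Abca1 and Abcg1 rose. Abca1 (ENSMUSG00000015243), which passes cholesterol and phospholipid to apolipoprotein A-I, went from 21.4, 23.9, 19.5, 22.4 and 15.0 CPM to 49.4, 48.3, 42.4, 39.9 and 44.8 CPM. Treated samples all lay above the controls, 2.20-fold on the means, with a log2 fold change estimated at 1.14 ± 0.12 (SE, adjusted p = 7.11e-06). Abcg1 (ENSMUSG00000024030), which passes cholesterol to lipoprotein particles, went from 7.93, 6.27, 7.06, 12.5 and 6.69 CPM to 28.8, 20.7, 17.1, 26.8 and 28.3 CPM. No treated sample fell into the control range, and the mean was 3.01-fold higher (log2 fold change 1.59 ± 0.21, SE, adjusted p = 3.73e-05). Of the 10 tested Abca members 7 were called, 1 higher and 6 lower, with a median log2 fold change of -0.81. Of the 3 tested Abcg members 1 was higher and 1 lower. Abcg3, the other one, had 0.54 (adjusted p = 0.314), and 1.17 with a call (edgeR, adjusted p = 0.0173) without control replicate 1.

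Partners of cholesterol export moved in both directions. Of 20 such genes, 5 were higher and 10 lower, or 75.0% called against 65.3% of all tested genes, with a median log2 fold change of -0.16. On total counts 12 were higher and 7 lower. Cyp27a1, a sterol hydroxylase, had -1.87, the phosphodiesterase gene Smpdl3a -1.41, the lysosomal lipase gene Lipa -1.33 and Nr1h3, the sterol-sensing receptor LXR alpha that drives Abca1 and Abcg1, -1.15 on the log2 scale. Macrophages are known for high Abca1 and Abcg1. Of 13 tested myeloid markers 10 were higher and 0 lower, and the 14 listed genes summed to 105 to 238 CPM in controls and 257 to 905 CPM in treated kidneys. Puberulic acid replicate 1 had the lowest myeloid sum of its group, at 257 CPM, and the highest Abca1 and Abcg1, at 49.4 and 28.8 CPM. Among controls, replicate 4 had the highest myeloid sum, at 238 CPM against 105 to 180 CPM, and the highest Abcg1, at 12.5 CPM against 6.27 to 7.93 CPM. The part of the myeloid RNA in these 2 results was not tested.

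Among the 4 Abce and Abcf genes, 1 was called higher and 1 lower, and the direction of the group depended on the scaling. Abce1 (ENSMUSG00000058355), which splits ribosomes after termination, measured 89.2, 82.0, 75.8, 84.4 and 72.5 CPM in controls and, after puberulic acid, 78.4, 84.4, 86.3, 90.4 and 82.7 CPM, overlapping, at a log2 fold change estimated at 0.06 ± 0.08 (SE, adjusted p = 0.491). Abcf1 (ENSMUSG00000038762), which binds the initiation factor eIF2 and ribosomes, went from 71.9, 80.2, 78.5, 75.8 and 78.2 CPM to 92.0, 95.5, 89.9, 80.2 and 83.6 CPM. The lowest treated value fell just inside the control range, and the log2 fold change was 0.20 ± 0.07 (SE, adjusted p = 0.0309). That call was lost without any 1 of control replicates 1, 3, 4 or 5 or puberulic acid replicates 1, 2, 3 or 5. Abcf2 (ENSMUSG00000028953) measured 44.7, 50.5, 49.3, 50.2 and 52.2 CPM and 53.0, 53.8, 50.5, 53.6 and 55.0 CPM, with a log2 fold change estimated at 0.11 ± 0.07 (SE, adjusted p = 0.188). Only Abcf3 (ENSMUSG00000003234) fell, from 35.2, 38.2, 31.6, 34.8 and 45.2 CPM to 28.4, 22.4, 27.4, 23.5 and 23.5 CPM (log2 fold change -0.56 ± 0.11, SE, adjusted p = 0.000795). On total counts Abce1, Abcf1 and Abcf2 were all called higher, at 0.57, 0.71 and 0.62, and Abcf3, at -0.05, was not called. Among 15 measured genes of termination, ribosome recycling and initiation, 9 were higher and 3 lower, with a median log2 fold change of 0.42. This made 80.0% called, against 65.3% of all tested genes. On total counts 12 were higher and 0 lower. Eif6, which keeps the large ribosomal subunit free, had 1.80, the release factor Gspt2 1.01, and the eIF2 subunits Eif2s1 and Eif2s2 0.88 and 0.84, all as log2 fold changes.

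**Figure D4:**
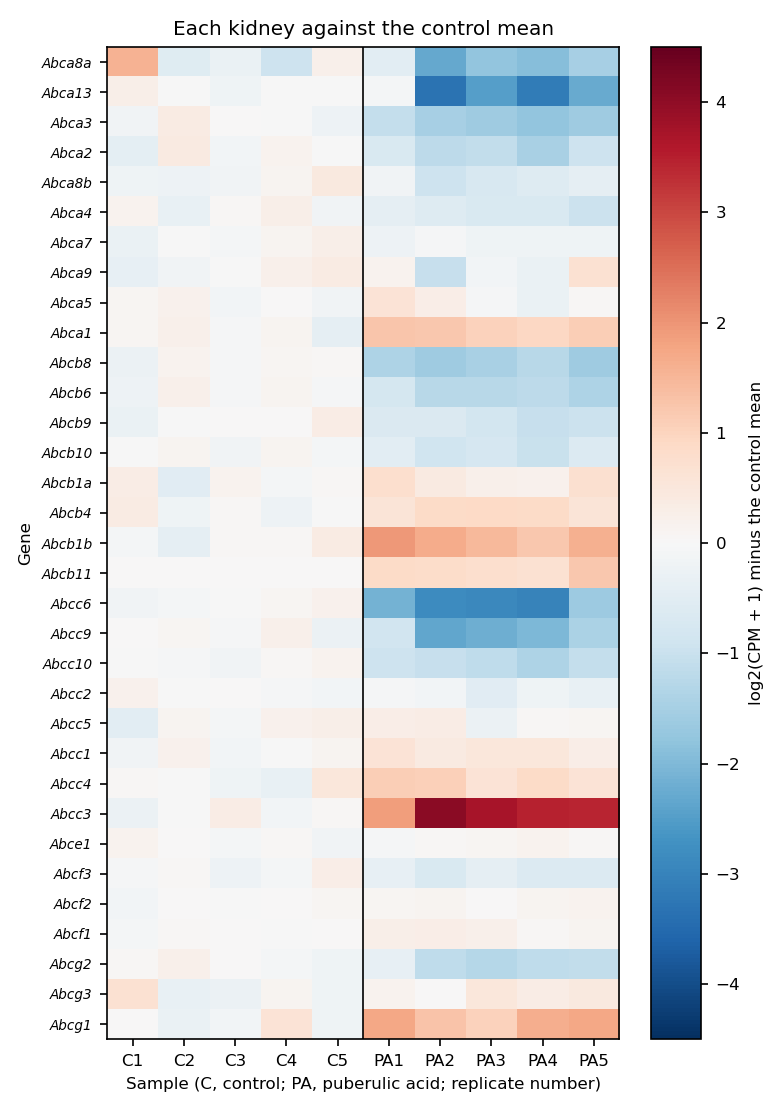
Log2(CPM + 1) of 33 of the 34 tested members in each sample minus the control mean, controls C1 to C5 at left and puberulic acid PA1 to PA5 at right. Abcc3 is the strongest red row and Abca13 and Abcc6 the strongest blue rows, and Abca13 in PA1 is close to the controls.

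Treated samples were not alike. Puberulic acid replicate 1 was nearest to the control mean of the 5 treated samples for 16 of the 26 called members, or 61.5%, against 55.4% over all called genes. Replicate 4 was nearest for 6, replicates 3 and 5 for 2 each, and replicate 2 for 0. For Abcb1b, Abcc4, Abca1, Abcg1, Abcb1a and Abcc1, replicate 1 was instead the highest of its group, at 29.3 CPM for Abcb1b and 83.2 CPM for Abcc4. Without replicate 1, Abcb1a and Abcf1 lost their calls, Abcc2 gained one, and the other members kept theirs. Marker sums also set replicate 1 apart. Its proximal tubule sum was 8763 CPM against 6215 CPM in the lowest treated sample. Its sum for the thick limb, distal tubule and collecting duct was 6798 CPM, where the treated median was 4130 CPM and the highest control 6705 CPM. Its myeloid sum, 257 CPM, was the lowest of the group, and the part of these differences in the ABC values was not tested.

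**Figure D5:**
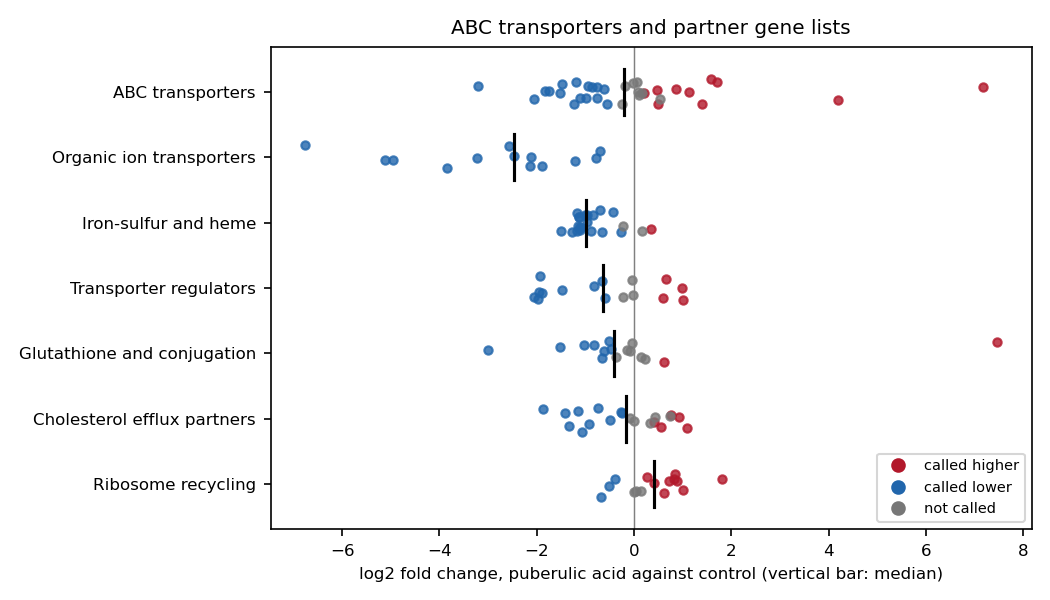
Log2 fold changes of tested genes in the ABC family and in 6 lists of partner genes, each point 1 gene, with the list median as a vertical bar and colours for the call. Organic ion transporters lie wholly below 0 with a median of -2.46, and ribosome recycling genes have a median of 0.42; the ABC point farthest right is Abcb11, which had no control counts.

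Carriers of organic ions from the Slc families, which take them into tubule cells or, as Slc47a1, Slc17a1 and Slc17a3 do, release them into the urine, were measured beside the ABC genes. All 13 listed were lower, 11 of them also on total counts, with a median log2 fold change of -2.46. After Slc22a8 at -6.76, the largest were Slco1a1 at -5.11, Slc22a6 at -4.96 (-5.67 without puberulic acid replicate 1) and Slc22a7 at -3.85, all carriers of organic anions, on the log2 scale. All 16 proximal tubule markers, which include Slc22a6 and Slc22a8 of the carrier list, were lower. Their sums were 40630 to 53970 CPM in controls and 6215 to 8763 CPM with puberulic acid. Of 16 transcription factors and partners known to act on drug transporters, 9 were lower and 4 higher, and on total counts 5 lower and 7 higher. By TMM factors 81.2% were called, against 65.3% of all tested genes. Hnf4a, a master factor of the proximal tubule and also among its 16 markers, had -2.05 on the log2 scale. The estrogen receptor Esr1 had -1.95 and the bile acid receptor Nr1h4 -1.93. The 4 higher ones, named after their values were seen, were Nfe2l2, Ahr, Trp53 and Sp1. Of 16 tested genes that make glutathione or conjugates, 2 were higher and 8 lower, and on total counts 5 higher and 4 lower. By TMM factors 62.5% were called, close to the 65.3% of all tested genes. Gsta1, a glutathione transferase, stood at 7.47 on the log2 scale, with means of 0.313 ± 0.237 and 56.4 ± 16.7 CPM (SD, n = 5), the glutathione-cleaving enzyme Ggt1 -3.01, the glucuronosyltransferase Ugt1a6a -1.52 and glutathione synthetase (Gss) -1.03.

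ABC genes that carry other symbols were read from the same fit. Of 6 tested, 1 was higher and 3 lower, or 66.7% called, against 65.3% of all tested genes. The peroxisomal transporter Abcd3 went from 510.4 ± 31.8 to 115 ± 15.0 CPM (SD, n = 5), with a log2 fold change estimated at -2.14 ± 0.10 (SE, adjusted p = 1.68e-08), and the lysosomal cobalamin transporter Abcd4 was lower at -1.34. Cftr, the chloride channel of the family, rose from 4.53 ± 0.819 to 12.7 ± 1.41 CPM (SD, n = 5), with a log2 fold change estimated at 1.48 ± 0.16 (SE, adjusted p = 5.5e-06). Tap1 and Tap2, which together pump peptides for antigen presentation, were not called, at -0.03 and 0.07, and control replicate 1 decided both values. Tap1 measured 196, 10.6, 11.0, 9.91 and 7.92 CPM in controls and 18.3, 35.1, 59.2, 77.3 and 40.9 CPM in treated kidneys. Tap2 measured 106, 21.2, 20.6, 19.9 and 22.9 CPM and then 28.4, 32.2, 45.0, 54.7 and 40.8 CPM. Every treated sample lay above the other 4 controls, and without control replicate 1 both were called higher, at 2.21 and 0.92 (edgeR, adjusted p = 0.000252 and 0.000824).

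Whole kidney also holds other cells. Of the tubular injury markers 8 of 8 were higher, and of 13 markers of the thick limb, collecting duct and distal tubule 10 were lower and 0 higher, or 6 and 2 on total counts. Podocyte markers gave 1 of 7 lower and endothelial markers 3 of 10 lower, with 0 higher in both, and on total counts none of these was lower and 2 podocyte markers were higher. Of 6 tested lymphoid markers 3 were higher, of 8 urothelial markers 1, Krt5, was higher, and the 3 tested hepatocyte markers were lower. On total counts 4 lymphoid and 3 urothelial markers were higher and 2 hepatocyte markers lower. Adipose and adrenal markers summed to 0.374 to 0.844 and 0.400 to 2.14 CPM in controls and to 257 and 54.7 CPM in puberulic acid replicate 3, with 1 marker of each list tested and higher. Leaving that sample out changed the call of 1 member, Abcf1.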

How the data were processed

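Poly(A)-selected RNA of whole kidney was sequenced with a directional kit, per the labels' protocols. The authors deposited 1 table of expected counts per gene, values that need not be whole. The submitters' processing notes name GRCm39, fastp 0.22.0, FastQC 0.12.1, MultiQC 1.28, Salmon 1.10.3 and DESeq2 without their roles; the annotation is not given in the sources used here. Column names tied 10 columns to the control and puberulic acid groups, and 10 columns could not be tied to a lot and were not used.

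Symbols came from a reference table of gene names, which matched 51344 of 55822 gene IDs, holding 99.3% of counts. Expected counts were rounded and tested with edgeR 4.0.16 (quasi-likelihood test, TMM factors, filterByExpr, R 4.3.3), on the 10 samples only, with Benjamini-Hochberg adjustment over all 16266 genes tested. Standard errors were derived from the F statistic and the log2 fold change of each gene. Controls had TMM factors from 0.827 to 0.848 and treated samples from 1.17 to 1.26, and 3 counts correspond to 0.158 to 0.195 and 0.0964 to 0.128 CPM. The scripts were tested on simulated data. Sums of Abcb1a and Abcb1b were compared with an exact permutation test (scipy 1.17.1). Transcript lengths came from GENCODE M21, on GRCm38, and no coordinates were moved between builds.

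Values in every sample are given for members called with a log2 fold change of at least 1 in size or with a mean of at least 20 CPM in a group, and up to 4 called genes with the largest changes are named per list. The members and lists were chosen with earlier results of these data known, and the hepatocyte markers were added after the values were seen. Alternatives were other scalings and filters, DESeq2 1.42.0, a robust fit, leaving out abundant genes, a replicate block and leaving out each sample. Some genes of the family and of the lists stay in the counts but are not reported here one by one.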

Additional observations from a re-analysis of the deposited data

Results flagged for a closer look

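In 5 of 80 groups of values searched, 1 sample stood apart: its gap to the nearest other sample, as a share of the range of its group, exceeded 0.71, the critical value for 5 samples. Chance flags about 1 in 20 groups, or 4 of these 80. The gap was 0.872 for Abca13 in puberulic acid replicate 1, at 92.2 CPM against 8.99 to 19.7 CPM in the other 4 samples. It was 0.852 for Abcg2 in the same replicate, at 279 CPM against 149 to 168 CPM. Abca8a in control replicate 1 had a gap of 0.734, at 29.3 CPM against 4.42 to 11.0 CPM. Abcg1 in control replicate 4 had a gap of 0.732, at 12.5 CPM against 6.27 to 7.93 CPM. Abca7 in puberulic acid replicate 2 had a gap of 0.72, at 11.7 CPM against 10.2 to 10.6 CPM.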

How the results depend on the processing

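Of the 26 called members, 18 kept call and direction in every alternative that tested them and 8 lost the call in at least 1. Abcb11, among the 18, was not tested with a minimum of 1 CPM in 5 samples, which left 25 members called, 9 of them higher, and 8 in Abcb. The count of called members ran from 24 to 27 when 1 sample was left out, with 8 to 10 higher and 16 to 17 lower. Requiring a log2 fold change of at least 1 in size left 15. Total-count scaling gave 16 higher and 10 lower and called 1 Abce member, and its median over all genes was 0.56. There Abca7 reversed to 0.32, Abca9 to 0.49 and Abcc2 to 0.27, and Abca9 was 0.06 with upper-quartile factors. Leaving out 1 sample gave 6 to 7 called in Abca, 8 to 9 in Abcb, 6 to 7 in Abcc, 0 in Abce, 1 to 2 in Abcf and 2 to 3 in Abcg. It moved Abca9 between -0.37 and 0.15, Abcc5 between -0.02 and 0.17 and Abca5 between -0.01 and 0.23, so each changed sign without being called. With no filter 1 Abcf member was called. The Abcb1a and Abcb1b sum differed by 16.5 to 20.6 CPM without 1 sample, and by 27.4 CPM on total counts. The exact permutation p without 1 sample was 0.0159, the lowest value possible with that number of samples. The cause of these changes was not tested.

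Samples with the same replicate number did not deviate together: their correlations were -0.172, 0.039, -0.0437, -0.0204 and 0.0172, and none correlated best with its own number. With the replicate number as a block, 26 members were called, 25 of them shared with the fit without it, 1 Abcf member was called because Abcf1 lost its call (0.20, adjusted p = 0.0553), Abcc2 was called lower (-0.24, adjusted p = 0.0458), and over all genes 10325 were called against 10622.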
